A study of Mus musculus with 21 samples.

Results

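Intergenic regions of the autosomes whose capture of methylated DNA differed between cultures of mouse synovial fibroblasts are described here. They are the regions of 4 deposited tables that lie on chromosomes 1 to 19 and that the authors annotated as intergenic, without chromosome 9 below 25 Mb and chromosome 12 from 18 to 26 Mb. The rule left 21670 of the 49307 listed regions: 5862 of 13125 at 3 weeks, 5386 of 11975 at 8 weeks, 3346 of 7309 at 11 weeks and 7076 of 16898 after TNF. The 21 samples formed 7 groups of 3: Tg197 and wild-type (WT) cells at 3 weeks, Tg197 and WT cells at 8 weeks, Tg197 and WT cells at 11 weeks, and WT cells at 8 weeks with added TNF, which were set against the same untreated WT cells. Tg197 mice carry a human TNF transgene and develop arthritis of many joints. All groups were of CBA x C57BL/6J strain and of passage 4 to 5, and the dose and duration of TNF are not given in the labels. The labels do not say whether the 3 samples of a group came from separate animals or cultures, so each p-value reflects the scatter among these samples alone and part of that scatter may be technical.

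Methyl-CpG-binding protein captures DNA that carries methylated cytosines next to guanines, and the captured fragments are sequenced, so the reads of a region follow both its methylation and how many such sites it holds. Most intergenic DNA of mammalian cells is methylated, above all in its repeats, while unmethylated intergenic stretches often include enhancers and other regulatory elements. Synovial fibroblasts line the joint and release matrix-degrading enzymes and cytokines in arthritis. The values measure captured DNA and not expression, so the cell type label could not be checked by expression of its markers. A change of capture in the fibroblasts and a change in the mix of cells in a culture cannot be told apart.

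Every region in the tables had been listed by the authors for a difference. The shares of gains and losses below therefore describe lists of selected regions and not the genome. The authors' deposited adjusted p was not under 0.05 at 530 of the 5862 intergenic regions at 3 weeks. The same held for 94 regions at 8 weeks, 43 at 11 weeks and 134 after TNF. The shares include these regions. The limma tests, the counts of groups that did not overlap and the library deviations used the same libraries that listed the regions. They retest selected regions, with p-values adjusted over the listed regions alone, so passing is no independent support for a difference. A region is called gained or lost as the authors listed it, where gained means a higher mean in Tg197 or TNF-treated cells. Intergenic regions had a median width of 550 bp, and the files name no gene for them. They held 180076 to 1398178 recovered reads per library, fewest at 11 weeks. At 8 weeks, 1 read counted as 1.33, 0.692 and 1.47 normalized reads in Tg197 libraries 1 to 3, against 0.846, 0.749 and 1.11 in WT libraries 1 to 3, so the reads of Tg197 libraries 1 and 3 were scaled up most. The values of TNF-treated libraries 1 and 2 were the same at every region, so they enter as 1 sample (n = 2 TNF-treated and 3 WT).

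The comparison at 3 weeks addressed the early stage of disease. As deposited, most weakly captured intergenic regions were gained in Tg197 cells and most strongly captured ones were lost, but the direction of the strongly captured ones turned with the scaling of the libraries. Of the 5862 regions, 2391 were gained and 3471 lost, a share gained of 40.8% against 46.1% of the 6424 other autosomal regions and 43.4% of all listed regions (56.6% of which were lost). Gains made up 91.7% of the 1426 regions with a mean of 10 to 30 normalized reads and 77.3% of the 1026 with 30 to 100. They made up 10.6% of the 2179 with 100 to 300 and 4.79% of the 1231 with 300 or more. Other autosomal regions of the same levels were gained at 93.2%, 83.8%, 13.4% and 6.17%, so direction changed with level in the same way outside intergenic DNA. When each library was shifted to the same median log2 value, the intergenic shares were 91.7% and 77.3% in the lower classes, as before, but 56.3% at 100 to 300 reads and 60.5% at 300 or more. That median was taken over the listed autosomal regions, which had been selected for a difference. The shift can therefore itself turn the sign of small folds, and which scaling is right was not tested.

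At 3 weeks the median log2 fold change of Tg197 over WT was 1.01 at gained and -0.27 at lost regions (limma, on log2 of the value plus 1). The contrast went with level, since the median level was 27.9 reads at gained and 248 at lost regions. Within a level gains were not clearly larger: 1.18 and -1.25 at 10 to 30 reads and 0.87 and -0.81 at 30 to 100. At 100 to 300 reads they were 0.19 and -0.26, and at 300 or more 0.09 and -0.24. By limma 2244 regions rose (40.3% of all listed regions did) and 2806 fell (44.7% did). In either direction 86.1% of the intergenic regions passed, against 85.0% of all listed regions, at an adjusted p under 0.05. The libraries of the Tg197 and WT groups did not overlap at 5044 intergenic regions, 86.0% against 86.1% of all listed regions. Library by library, the median deviation at 10 to 30 reads was 0.54, 0.55 and 0.60 in Tg197 libraries 1 to 3 and -0.69, -0.36 and -0.47 in WT libraries 1 to 3, on the log2 scale. All 3 libraries of each group lay on the same side at every level. A limit is that 2105 of these regions (35.9%) carry a deposited p more than 10 times below what an exact binomial test gives for their reads, called the counting bound here, and without them 2160 rose and 1290 fell. With libraries shifted to the same median 2700 rose and 529 fell, so that 83.6% rather than 44.4% of the changes were gains. The shift took the median log2 fold over all listed autosomal regions to 0.14, against -0.12 as deposited.

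**Figure D1:**
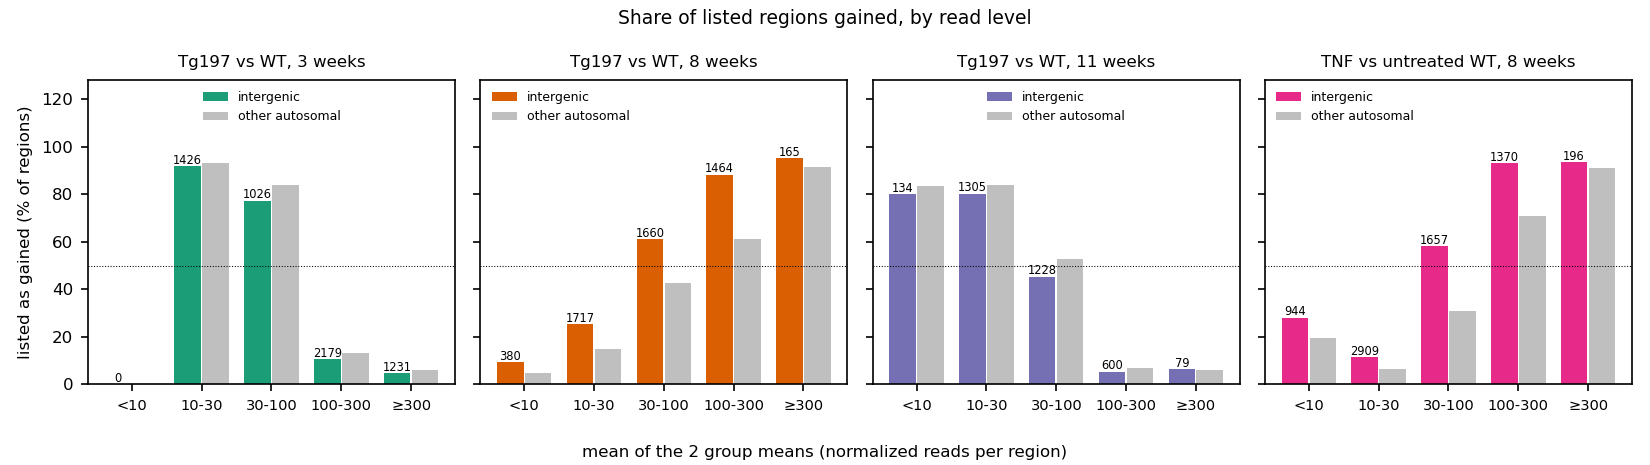
Share of listed regions gained (%) in 5 classes of read level (mean of both group means, normalized reads per region), one panel per comparison. Coloured bars are intergenic regions with their number above, grey bars other autosomal regions, and the dotted line marks 50%. At 3 weeks the share as deposited was 91.7% at 10 to 30 reads and 4.79% at the top level (60.5% with libraries shifted to the same median), with a like order at 11 weeks, while the top level stood at 95.2% at 8 weeks and 93.4% after TNF.

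Among the largest gains at 3 weeks, a region 35.7 kb from Baz1a, a chromatin remodelling gene, held 19.4, 22.6 and 25.7 normalized reads in Tg197 libraries against 1.88, 2.71 and 9.09 in WT libraries (chr12:56123001-56123700, mm9). The log2 fold change was 2.30 (standard error 0.43, limma adjusted p = 0.00162). On the same chromosome a region 1050 kb from Colec11, a collectin gene, held 28.1, 30.2 and 19.8 in Tg197 and 3.76, 9.05 and 2.27 in WT libraries (chr12:28225301-28226000, log2 fold 2.30, limma adjusted p = 0.00146). Distances are to the nearest gene that the 4 files place on mm9, and a nearer gene may exist that they do not list. The other top gains lay on chromosomes 13 and 18, where 1 WT library stood at 0. The largest loss lay 191 kb from Cdh12, a cadherin of neurons, with 1.08, 17.9 and 0.99 reads in Tg197 libraries and 67.6, 33.5 and 24.99 in WT libraries (chr15:20849351-20850250). Its log2 fold change was -3.21 (standard error 0.64, limma adjusted p = 0.00172), and Tg197 library 2 lay far above the other two. Losses 40.3 kb from Elfn1 (a synaptic protein gene), 15.9 kb from Vit (a matrix protein gene) and 417 kb from Dlc1 had log2 folds of -2.90, -2.69 and -2.63, each with 1 Tg197 library at 0 and the other two between 11.3 and 31.3 reads.

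The most strongly captured regions that passed at 3 weeks moved little. A region 6.87 kb from Tra2a, a splicing regulator gene, held 5494, 4928 and 3635 reads in Tg197 libraries and 2871, 3400 and 3447 in WT libraries (chr6:49186101-49187050, log2 fold 0.52, limma adjusted p = 0.0213). A region 92.2 kb from Myt1, a neural transcription factor gene, held 1629, 1572 and 1640 in Tg197 and 2177, 1961 and 1969 in WT libraries (chr2:181654651-181656000, log2 fold -0.33, limma adjusted p = 0.00605). The loss 107 kb from Tbx18, a factor of mesenchymal development, had a log2 fold of -0.24, which turned to 0.03 when libraries were shifted to the same median.

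At 8 weeks, when disease is established, the relation to level ran the other way. Of the 5386 intergenic regions 2932 were gained and 2454 lost in Tg197 cells, a share gained of 54.4% against 31.9% of the 5302 other autosomal regions and 48.5% of all listed regions (51.5% of which were lost). Gains made up 9.47% of the 380 regions under 10 normalized reads and 25.2% of the 1717 with 10 to 30. The share was 61.1% of the 1660 with 30 to 100, 88.2% of the 1464 with 100 to 300 and 95.2% of the 165 with 300 or more. Other autosomal regions stood lower in each of the 5 classes, at 4.93%, 14.8%, 42.8%, 61.1% and 91.4%. The gap carries no test, because regions of a table share their libraries.

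Of the 8-week regions 1141 rose (17.4% of all listed regions did) and 1752 fell (36.6% did), so that 53.7% passed limma against 54.0% of all listed regions. The groups did not overlap at 3757 intergenic regions, 69.8% against 69.6% of all listed regions. With libraries shifted to the same median, 1837 rose and 961 fell, 65.7% gains among the changes rather than 39.4%. That shift took the median log2 fold over listed autosomal regions to -0.40, against -0.71 as deposited.

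Single libraries stood apart at 8 weeks. At 100 to 300 reads the median deviation was 0.61, -0.09 and 0.19 in Tg197 libraries 1 to 3, against -0.27, -0.28 and -0.12 in WT libraries. At 300 reads and above it was 0.94, -0.35 and 0.10 in Tg197 and -0.26, -0.24 and -0.10 in WT libraries, so Tg197 library 2 lay below every WT library and the gains rested on library 1 most. At 10 to 30 reads, where losses prevailed, WT library 3 stood at 0.17 against 0.91 and 0.87 in WT libraries 1 and 2. Without Tg197 library 2, 2119 regions rose and 1715 fell, and without WT library 3, 700 rose and 1565 fell. No region passed limma without Tg197 library 1 or 3 or without WT library 1 or 2, with 2966, 2650, 1983 and 1942 regions at an unadjusted p under 0.05. None passed with a pseudocount of 0.1 either, with 3375 unadjusted, while limma voom, fitted to the reads, called 2646. The median SD over the libraries of a group was 0.47 in Tg197 and 0.24 in WT cells on the log2 scale, against 0.10 and 0.12 at 3 weeks.

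**Figure D2:**
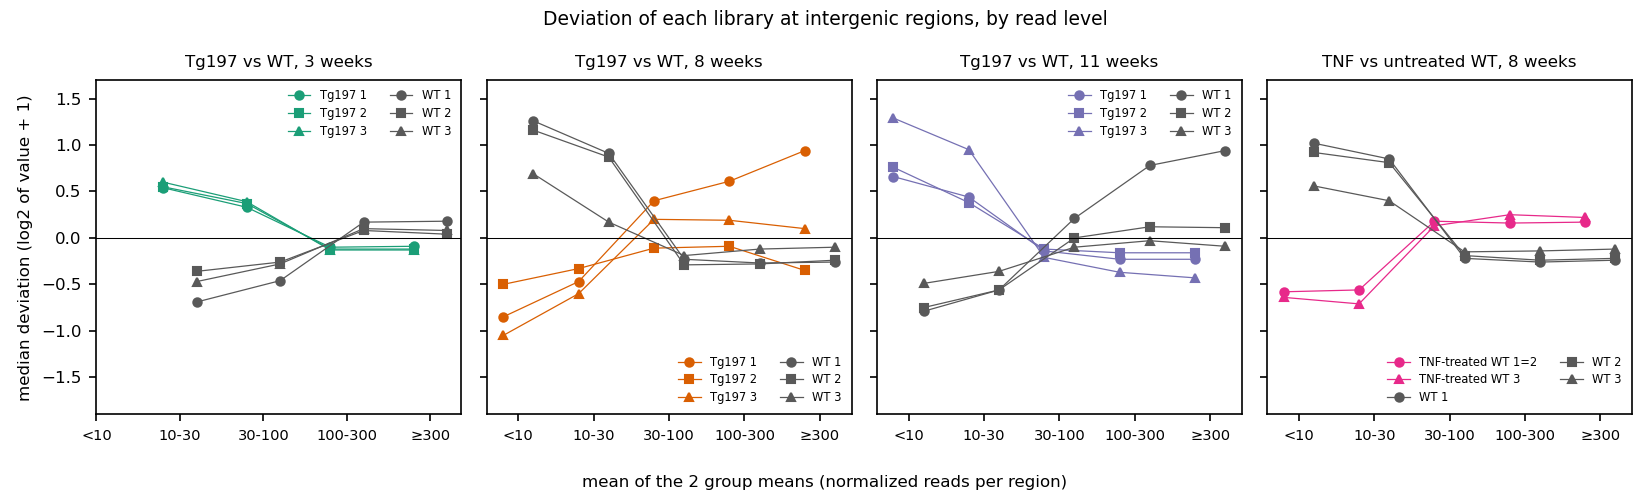
Median deviation of each library from the mean of both group means (log2 of the value plus 1) at intergenic regions of 5 read levels, one panel per comparison. Coloured symbols are Tg197 or TNF-treated libraries and grey symbols WT libraries. At 3 weeks the groups separate at every level, while at 8 weeks Tg197 library 2 lies with the WT libraries from 100 reads (-0.09 and -0.35) and at 11 weeks WT library 1 stands above all others there (0.78 and 0.94).

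The 4 largest losses at 8 weeks all lay on chromosome 15, where 26.7% of 281 intergenic regions were gained. A region 602 kb from Basp1, which encodes a membrane protein of nerve endings, held 22.5, 0 and 0 reads in Tg197 libraries and 117, 70.4 and 31.0 in WT libraries (chr15:24690051-24691100). Its log2 fold change was -4.49 (standard error 1.24, limma adjusted p = 0.0428). Regions 1220 kb from Cdh6 and 559 kb from Cdh10, both genes of type II cadherins, had log2 folds of -4.33 and -4.31 (chr15:14324901-14325700 and chr15:19503351-19504450). The region near Cdh10 held 27.8, 2.08 and 0 reads in Tg197 and 148, 79.4 and 56.4 in WT libraries. A region 124 kb from Trhr, the thyrotropin-releasing hormone receptor gene, held 0, 1.38 and 0 in Tg197 and 27.1, 30.0 and 8.84 in WT libraries (chr15:43902701-43903350, log2 fold -3.94, limma adjusted p = 0.0428). In all of these WT library 3 was the lowest of its group.

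Among the 8-week gains, a region 206 kb from Npas3, a neural transcription factor gene, held 19.9, 27.7 and 25 reads in Tg197 libraries and 0, 10.5 and 0 in WT libraries (chr12:55379551-55380450, log2 fold 3.47, SE 0.96, limma adjusted p = 0.0428). A region 139 kb from Osbp, an oxysterol-binding protein gene, held 21.2, 18.7 and 20.6 in Tg197 and 3.38, 0 and 4.42 in WT libraries (chr19:12207551-12208450, log2 fold 2.88). These values were even within the Tg197 group. By contrast, a region 226 kb from Pdilt held 152, 49.1 and 121 reads in Tg197 against 31.3, 18.7 and 3.32 in WT libraries (chr7:126403501-126404550, log2 fold 2.80), with Tg197 library 2 lowest. Of the strongly captured regions, the one 20.1 kb from Edil3, an integrin-ligand gene of vessels, held 583, 361 and 427 in Tg197 and 270, 278 and 315 in WT libraries (chr13:88939751-88940950, log2 fold 0.64, limma adjusted p = 0.046).

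At 11 weeks, late in disease, the direction by level was again that of 3 weeks. Of the 3346 intergenic regions 1746 were gained and 1600 lost in Tg197 cells, 52.2% gained against 58.3% of the 3614 other autosomal regions and 54.2% of all listed regions (45.8% of which were lost). Gains made up 79.9% of the 134 regions under 10 reads, 80.2% of the 1305 with 10 to 30 and 45.3% of the 1228 with 30 to 100. At 100 to 300 reads 5.33% of 600 were gained, and at 300 or more 6.33% of 79. Other autosomal regions stood at 83.4%, 83.7%, 52.9%, 7.04% and 5.88% in the same classes. The median log2 fold was 1.23 at gained and -0.77 at lost regions, whose median levels were 23.0 and 79.2 reads. Within a level the sizes were closer, with 1.38 and -1.32 at 10 to 30 reads and 0.92 and -0.83 at 30 to 100.

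By limma 1612 regions rose at 11 weeks (49.7% of all listed regions did) and 1009 fell (28.2% did), so that 78.3% passed against 77.9% of all listed regions. The groups did not overlap at 2818 regions, 84.2% against 83.7% of all listed regions. With libraries shifted to the same median, 637 rose and 1441 fell, 30.7% gains among the changes rather than 61.5%, and the median over listed autosomal regions was 0.37 against 0.78 as deposited. WT library 1 stood apart at high levels, with a median deviation of 0.78 at 100 to 300 reads against 0.12 and -0.03 in WT libraries 2 and 3, while Tg197 libraries stood at -0.23, -0.16 and -0.37. In that library 1 read counted as 1.36 normalized reads, the most of the 6 libraries. Its part in the losses was not tested beyond leaving it out, which gave 1481 rises and 835 falls. Without Tg197 library 3 or WT library 2 no region passed limma (2148 and 2399 at an unadjusted p under 0.05), and without Tg197 library 1 none rose and 9 fell (2329 unadjusted).

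The largest 11-week losses lay on chromosomes 1 and 9. A region 71.5 kb from Nuf2, a kinetochore gene, held 3.99, 3.44 and 1.72 reads in Tg197 libraries and 17.7, 65.2 and 69.2 in WT libraries (chr1:171355701-171356600, log2 fold -3.50, SE 0.56, limma adjusted p = 0.0219). A region 237 kb from Slc35f5 held 13.6, 0 and 0.86 in Tg197 and 47.6, 44.7 and 34.1 in WT libraries (chr1:127220501-127221050, log2 fold -3.83). On chromosome 9, a region 760 kb from Kirrel3, a synaptic adhesion gene, held 44.7, 42.4 and 0 in Tg197 and 311.4, 164 and 138 in WT libraries (chr9:33535251-33536500, log2 fold -3.94). Of the strongly captured regions, the one 17.1 kb from Fcgr2b, the inhibitory IgG receptor gene, held 378, 367 and 278 in Tg197 and 855, 805 and 621 in WT libraries (chr1:172871601-172873600, log2 fold -1.16, limma adjusted p = 0.0219). It opened a run of 8 lost neighbours over 52.7 kb, all of which passed limma.

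At 11 weeks a gained region 0.97 kb from a copy of the predicted gene Gm13298 held 17.6, 29.8 and 37.9 reads in Tg197 libraries and 8.16, 0 and 7.80 in WT libraries (chr4:42534051-42535000, log2 fold 2.70, SE 0.81, limma adjusted p = 0.0219). A region 53.3 kb from Igf2as, the antisense transcript at the imprinted Igf2 gene, held 23.9, 16.0 and 49.1 in Tg197 and 0, 11.2 and 8.77 in WT libraries (chr7:149791751-149792250, log2 fold 2.49, limma adjusted p = 0.0288). Tg197 library 3 was the highest of its group in both. A strongly captured region 31.6 kb from Tbk1, a kinase gene of innate immune signalling, held 254, 251 and 198 in Tg197 and 132, 151 and 171 in WT libraries (chr10:120951401-120951950, log2 fold 0.63, limma adjusted p = 0.0275).

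TNF-treated WT cells showed gains at strongly captured and losses at weakly captured intergenic regions. Of the 7076 regions 3017 were gained and 4059 lost, 42.6% gained against 23.4% of the 9041 other autosomal regions and 33.8% of all listed regions (66.2% of which were lost). Gains made up 28.0% of the 944 regions under 10 reads and 11.4% of the 2909 with 10 to 30. They made up 58.1% of the 1657 with 30 to 100, 93.0% of the 1370 with 100 to 300 and 93.4% of the 196 with 300 or more. Other autosomal regions stood at 19.7%, 6.44%, 30.8%, 71.0% and 90.8%, so the intergenic share was the higher one in each class, a difference that was not tested. The WT libraries are those of the 8-week Tg197 comparison, so the 2 sets of values are not independent.

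After TNF 2710 intergenic regions rose (29.8% of all listed regions did) and 3943 fell (64.1% did), 94.0% passing limma against 93.8% of all listed regions. The groups did not overlap at 6786 regions, 95.9% against 95.8% of all listed regions. The median log2 fold was 0.67 at gained and -1.43 at lost regions, whose median levels were 95.6 and 16.5 reads. Within a level the sizes were closer, with 1.2 and -1.45 at 10 to 30 reads and 0.75 and -0.96 at 30 to 100. At 100 to 300 reads they were 0.5 and -0.33. With libraries shifted to the same median, 3046 rose and 382 fell, 88.9% gains among the changes rather than 40.7%, and the median over listed autosomal regions was -0.17 against -1.11 as deposited. At 10 to 30 reads the median deviation was -0.56 in TNF-treated libraries 1 and 2 and -0.71 in library 3, against 0.85, 0.81 and 0.40 in WT libraries 1 to 3. Without TNF-treated library 1 or 3, 1569 or 1565 regions rose and 2939 or 3323 fell. The deposited p fell below the counting bound at 1884 regions (26.6%).

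The largest gain after TNF lay 619 kb from Clnk, an adaptor gene of immune receptors, with 14.9 reads in TNF-treated libraries 1 and 2 and 44.6 in library 3, against 0.86, 0 and 3.69 in WT libraries (chr5:39886451-39887400, log2 fold 3.71, SE 0.74, n = 2 and 3, limma adjusted p = 0.0109). The largest loss lay 152 kb from Copg2, a coatomer gene, with 1.99 and 0 reads in TNF-treated libraries and 24.8, 26.7 and 12.3 in WT libraries (chr6:30998401-30999300, log2 fold -3.61, SE 0.61, limma adjusted p = 0.0109). A region 21.9 kb from Rassf3 held 0 and 2.48 in TNF-treated and 18.8, 25.9 and 20.9 in WT libraries (chr10:120935201-120936150, log2 fold -3.60). The most strongly captured intergenic region that passed lay near the start of chromosome 12 as numbered on mm9 (chr12:3110001-3110500), with 169626 and 162443 reads in TNF-treated libraries and 91116, 112872 and 143870 in WT libraries (log2 fold 0.54, limma adjusted p = 0.0112). Its level of 141000 reads stood against a median of 25.3 over the intergenic regions after TNF. Whether its reads came from this place alone was not tested. Strongly captured losses 6.9 kb from Wdr65 and 397 kb from Wdr17 had log2 folds of -0.19 and -0.35, which turned to 0.75 and 0.59 when libraries were shifted to the same median.

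**Figure D3:**
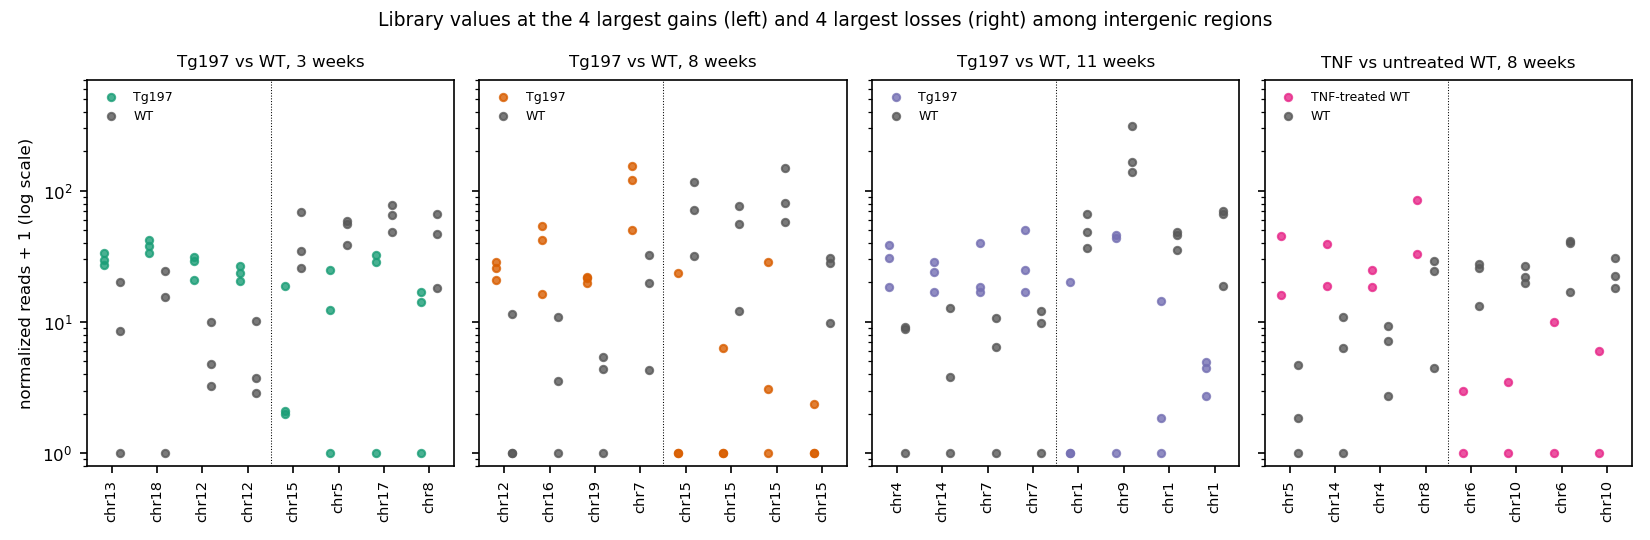
Normalized reads plus 1 (log axis) of each library at the 4 intergenic regions with the largest gain (left of the dotted line) and the 4 with the largest loss (right) in each comparison, labelled by chromosome. Coloured points are Tg197 or TNF-treated libraries and grey points WT libraries. The 4 losses at 8 weeks all lie on chromosome 15, and several groups hold 1 library at 0.

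The share of gains differed more between chromosomes at 8 weeks than in the other comparisons. At 8 weeks it ran from 25.4% of 351 intergenic regions on chromosome 11 to 75.7% of 272 on chromosome 16, with an SD over the 19 chromosomes of 15.5 percentage points. The SD was 4.89 at 3 weeks, 6.61 at 11 weeks and 7.4 after TNF. At 8 weeks the share was also low on chromosomes 15 (26.7%), 19 (34.1%), 17 (34.6%) and 14 (39.8%) and high on chromosomes 10 (73.1%), 7 (70.8%) and 12 (69.8%). At 10 to 100 reads the ends were the same chromosomes, with 23.3% on chromosome 11 and 68.5% on chromosome 16. Among regions past limma the lowest was again chromosome 11 (18.3%), but the highest was chromosome 12 (63.9%), just above chromosome 16 (63.1%). Part of the chromosome 12 gains lay beside its left-out stretch, where 23 of 24 regions at 26 to 28 Mb were listed as gained. Other autosomal regions of chromosome 11 were gained at 22.9% and of chromosome 16 at 39.6%. Chromosomes were read over single tables of selected regions, so no test was made.

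The libraries behind these shares differed. On chromosome 16 the median deviation at 8 weeks was 0.68, -0.02 and 0.25 in Tg197 libraries 1 to 3, against -0.22, -0.37 and -0.15 in WT libraries. On chromosome 10 it was 0.72, -0.27 and 0.24 in Tg197 libraries, with library 2 among the WT libraries at -0.23, -0.31 and -0.14. On chromosome 11 the groups lay apart, at -0.24, -0.30 and -0.52 in Tg197 and 0.65, 0.59 and 0.36 in WT libraries. On chromosomes 14 and 17, WT library 3 stood at -0.15 and -0.13, with the Tg197 libraries and not with WT libraries 1 and 2, which stood between 0.69 and 0.84. At 3 weeks the share ran from 33.0% on chromosome 15 to 51.7% on chromosome 13, at 11 weeks from 40.1% on chromosome 8 to 64.4% on chromosome 5, and after TNF from 22.3% on chromosome 11 to 55.5% on chromosome 3.

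**Figure D4:**
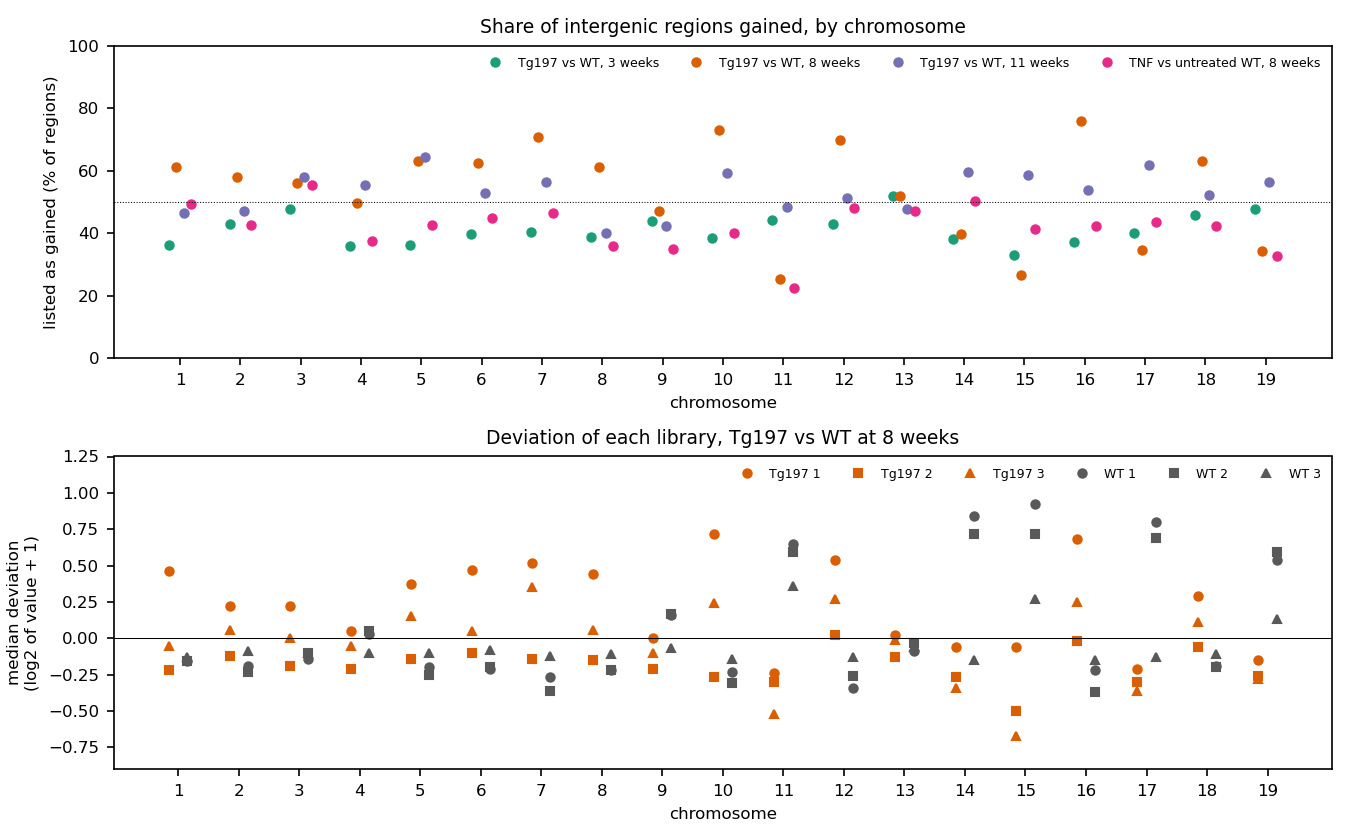
Upper panel: share of intergenic regions gained (%) on each autosome in the 4 comparisons. Lower panel: median deviation of each 8-week library (log2 of the value plus 1) on each autosome, Tg197 libraries coloured and WT libraries grey. The 8-week shares spread from 25.4% to 75.7%, and on chromosomes 14 and 17 WT library 3 lies with the Tg197 libraries.

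Neighbouring intergenic regions tended to share a direction when they lay close. Of pairs under 10 kb apart, 80.2% of 601 had the same direction at 8 weeks and 81.9% of 271 at 11 weeks, against 58.6% of 707 and 53.9% of 753 pairs over 1 Mb apart. At 3 weeks the shares were 66.8% of 635 close pairs and 57.3% of 649 distant ones, and after TNF 68.2% of 629 and 54.4% of 533. Part of this went with read level, since 29.9% of distant but 43.9% of close pairs at 3 weeks lay in the same class of level. Among pairs of the same class, close pairs shared a direction in 81.0% and distant ones in 84.5% of cases at 3 weeks, so no excess was seen there. At 8 weeks these values were 83.8% and 72.8%, at 11 weeks 87.4% and 68.4%, and after TNF 87.2% and 80.3%. Of pairs of other autosomal regions under 10 kb apart, 54.4%, 77.8%, 65.6% and 75.4% had the same direction at 3, 8 and 11 weeks and after TNF.

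Runs of at least 3 neighbours of 1 direction, with gaps of at most 50 kb, held more lost than gained regions in each comparison. There were 28 gained and 91 lost runs at 3 weeks, 96 and 101 at 8 weeks, 18 and 50 at 11 weeks, and 37 and 171 after TNF. Lost runs took up 8.56%, 15.9%, 13.6% and 14.8% of the lost regions in these 4 comparisons, and gained runs 3.55%, 12.5%, 3.38% and 4.14% of the gained ones.

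The run with the most regions lay on chromosome 8 at 11 weeks (chr8:19899251-20037300), where 23 intergenic regions over 138 kb were lost and 14 passed limma. Their median was 27.9, 26.3 and 17.2 reads in Tg197 libraries and 102, 47.5 and 35.1 in WT libraries, so that WT library 1 stood far above the other two. A second run of 20 lost regions lay just before it (chr8:19712101-19788650, 15 past limma), with medians of 16.0, 13.7 and 6.9 in Tg197 and 53.7, 25.6 and 20 in WT libraries. The same stretch was listed in the opposite direction elsewhere. Within the longer run 9 regions were gained at 8 weeks, at medians of 92.8, 20.1 and 33.8 in Tg197 and 27.1, 21.0 and 24.3 in WT libraries, but 0 of them passed limma and Tg197 library 2 lay below every WT library. At 3 weeks 3 regions there were gained, at 188, 214 and 207 in Tg197 and 163, 174 and 150 in WT libraries, and after TNF 2 were gained.

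At 8 weeks the longest gained runs, counted in regions as for the other runs here, were both on chromosome 10. Over chr10:81261001-81359700 there were 10 gained regions, with medians of 309, 94.1 and 160 reads in Tg197 libraries and 65.5, 66.7 and 79.0 in WT libraries, of which 4 passed limma. Over chr10:117764551-117815450 there were also 10, at 277, 78.9 and 150 in Tg197 and 96.0, 106 and 103 in WT libraries, and 1 passed. Tg197 library 2 lay above the WT libraries in the first and below them in the second. The longest lost run at 8 weeks (chr12:89302651-89396700) held 11 regions 203 to 296 kb from Adck1, a mitochondrial kinase gene, with medians of 13.2, 0.69 and 11.8 in Tg197 and 28.8, 30.7 and 21.0 in WT libraries, and 4 passed. Of the next 4 lost runs, 3 lay on chromosome 15. One of them (chr15:19424701-19556500) had 8 regions that all passed limma, at 43.7, 10 and 11.0 in Tg197 and 126, 77.5 and 69.1 in WT libraries.

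At 3 weeks the longest runs were short. WT library 1 was the highest of its group in the lost run and WT library 3 in the gained run. The longest lost run held 6 regions beginning 5.94 kb from Slc1a6, a glutamate transporter gene, at medians of 263, 279 and 258 reads in Tg197 and 325, 288 and 289 in WT libraries (chr10:78283451-78330450, 5 past limma). Of the 3 regions of it named by position, the deposited p of each was below the counting bound, and the middle and last log2 folds of -0.18 and -0.13 turned to 0.09 and 0.13 with libraries shifted to the same median. The longest gained run held 4 regions 145 to 202 kb from Zfp804b, at 52.9, 62.7 and 64.3 in Tg197 and 28.6, 29.9 and 42.0 in WT libraries (chr5:6566551-6623700), and all 4 passed. At 11 weeks the longest gained run held 5 regions 97.8 to 130 kb from another copy of Gm13298 than the one above (chr4:41940401-41973400), at 22.3, 38.9 and 42.2 in Tg197 and 16.3, 11.2 and 8.77 in WT libraries, all past limma.

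After TNF a gained run of 8 regions lay within 10.5 kb on chromosome 3 (chr3:6297151-6307650), 881 to 891 kb from Zfhx4, a homeobox gene. Its median was 459 and 462 reads in TNF-treated libraries and 319, 333 and 336 in WT libraries, and 7 of 8 passed limma. The longest lost run (chr8:124574401-124792750) held 11 regions between Banp, whose product binds nuclear matrix DNA, and Zfpm1, a GATA factor partner, at 12.9 and 8.68 in TNF-treated and 34.2, 28.9 and 28.3 in WT libraries, and 10 passed. A lost run of 8 on chromosome 9 (chr9:63662401-63760800) stood at 8.46 and 7.44 in TNF-treated against 25.7, 32.0 and 20.3 in WT libraries, and all passed.

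Direction also followed how many genes named for a listed region started around an intergenic one. Only these 9193 autosomal genes were counted, 8944 of them with a name among 20661 RefSeq protein-coding genes. The count therefore also follows where regions were listed and is not gene density. With no named gene start within 500 kb, 78.9% of 1058 intergenic regions were gained at 8 weeks and 76.1% of 1135 after TNF. With over 10 gene starts, 21.9% of 585 were gained at 8 weeks and 15% of 786 after TNF. These 2 comparisons share their WT libraries. At 3 weeks the order was the reverse and flatter, from 28.5% of 1085 with no gene to 49.5% of 495 with over 10, and at 11 weeks from 43.5% of 464 to 56.3% of 270. Read level moved with it, since at 8 weeks the median level was 99.1 reads with no gene and 28.0 with over 10. At 10 to 100 reads the 8-week shares still ran from 65.3% to 16.9% and the TNF shares from 63.4% to 7.34%, while the 3-week shares ran from 82.1% to 90.3%. The median distance to the nearest of these named genes was 173 kb at gained and 53.7 kb at lost regions at 8 weeks. It was 179 and 51.6 kb after TNF, 83.1 and 122 kb at 3 weeks and 77.4 and 90.4 kb at 11 weeks.

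**Figure D5:**
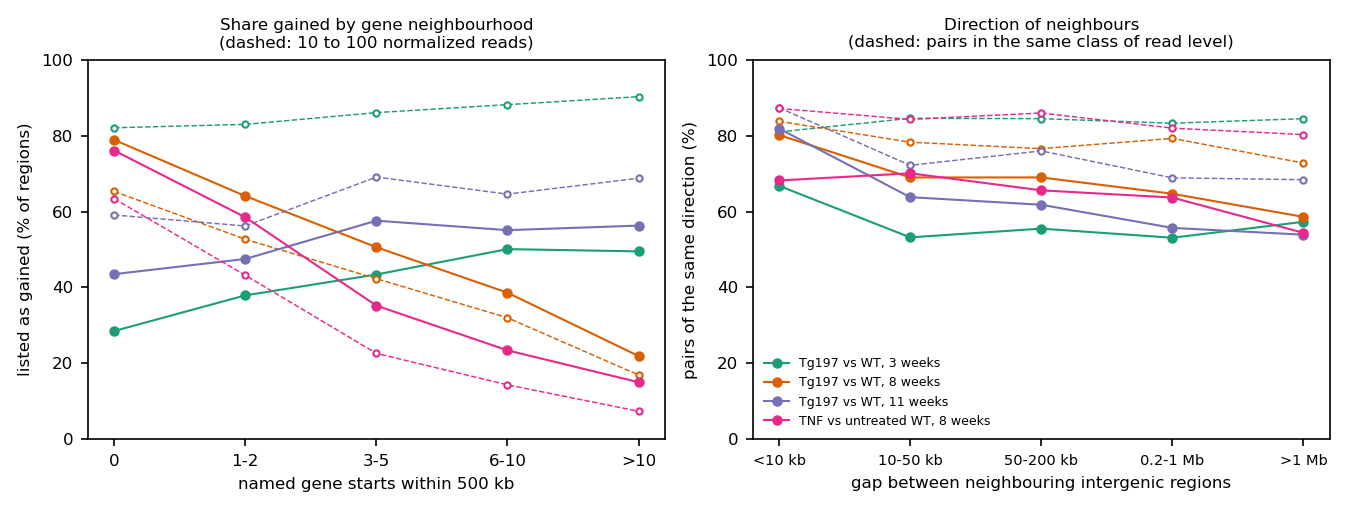
Left: share of intergenic regions gained (%) by the number of gene starts within 500 kb, in the 4 comparisons, counting only genes named for a listed region. Right: share of neighbouring pairs of the same direction (%) by the gap between them. Dashed lines show regions of 10 to 100 normalized reads (left) and pairs in the same class of read level (right). With no such gene against over 10 nearby, gains made up 78.9% and 21.9% at 8 weeks and 76.1% and 15% after TNF.

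Intergenic regions near genes of joint inflammation moved in both directions. These lists were not looked up in full. Of their genes, 23 of 32 for TNF and NF-kB and 17 of 38 for cytokines, chemokines and receptors could be placed. Over all intergenic regions the median log2 fold was -0.14 at 3 weeks, 0.34 at 8 weeks, 0.69 at 11 weeks and -0.96 after TNF, and the medians of each list below are given in that order. Of all listed regions 40.3% rose and 44.7% fell at 3 weeks, 17.4% and 36.6% at 8 weeks, 49.7% and 28.2% at 11 weeks, and 29.8% and 64.1% after TNF, and the counts near each list stand against these shares, with no test of a list. Within 200 kb of 23 TNF and NF-kB genes, 9 of 16 regions rose and 7 fell at 3 weeks, 2 rose and 3 fell of 8 at 8 weeks, 3 rose and 1 fell of 7 at 11 weeks, and 3 rose and 6 fell of 9 after TNF, with medians of 0.61, -0.20, 0.89 and -1.42. A region 16.1 kb from Map3k14, the kinase of non-canonical NF-kB signalling, held 170, 166 and 166 reads in Tg197 and 209, 209 and 203 in WT libraries at 3 weeks (chr11:103144851-103145350, log2 fold -0.31, limma adjusted p = 0.00253). A region 61.4 kb from Traf5, an adaptor of TNF receptors, rose after TNF, to 257 and 273 in TNF-treated against 178, 200 and 216 in WT libraries (chr1:193759151-193759700, log2 fold 0.42, limma adjusted p = 0.0111). At both, the deposited p lay below the counting bound. The same held for list regions given below near Ifnar1, Ror2, Lgr5, Bmp7, Chrd, Cdh8, Cdh10, Vmn2r103, Olfr1359, Pdgfra, Csf1r, Pecam1 and Emcn. It also held for the 3-week regions near Lama4 and Neb and the TNF region near Bcl11b. It did not hold near Osmr, Prrx1, Hoxb7, Hoxa3 and Sfrp1. Near 17 cytokine, chemokine and receptor genes, 4 rose and 5 fell of 10 at 3 weeks, 2 and 2 of 6 at 8 weeks, 5 and 5 of 12 at 11 weeks, and 3 and 4 of 7 after TNF, with medians of -0.13, 0.14, -0.59 and -0.71. The gain with the smallest deposited p lay 3.69 kb from Osmr, the oncostatin M receptor gene, at 23.8, 30.2 and 25.7 in Tg197 against 3.76, 10.9 and 13.6 in WT libraries at 3 weeks (chr15:6828001-6828850, log2 fold 1.55, limma adjusted p = 0.00259). The loss 26.4 kb from Ifnar1, an interferon receptor gene, had a log2 fold of -0.24 at 3 weeks, which turned to 0.02 with libraries shifted to the same median.

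Near 36 extracellular matrix and protease genes, 8 of 9 regions rose and 0 fell at 11 weeks, where 49.7% of all listed regions rose and 28.2% fell. The counts were 3 rising and 8 falling of 12 at 3 weeks, 2 and 8 of 19 at 8 weeks, and 10 and 18 of 29 after TNF, and the medians were -0.21, 0.09, 0.97 and -1.07. A region 8.35 kb from Lama4, a laminin gene of vessels, stood at 418 and 440 reads in TNF-treated against 288, 267 and 327 in WT libraries (chr10:38676501-38677300, log2 fold 0.55, limma adjusted p = 0.0109). An overlapping region at 3 weeks stood at 140, 152 and 148 in Tg197 against 178, 174 and 157 in WT libraries (log2 fold -0.21, turning to 0.06 with libraries shifted to the same median). Near 27 Wnt genes 27 of 34 regions fell and 5 rose after TNF, where 64.1% of all listed regions fell. In the Tg197 comparisons 6 fell and 1 rose of 8 at 8 weeks, while 6 rose and 1 fell of 7 at 11 weeks and 6 and 6 of 16 at 3 weeks. The medians were -0.09, -1.21, 1.09 and -1.18. A region 111 kb from Lgr5, the R-spondin receptor gene, fell at 3 weeks to 133, 126 and 142 in Tg197 against 198, 172 and 189 in WT libraries (chr10:115136051-115136550, log2 fold -0.47, limma adjusted p = 0.00163). The region 17.3 kb from Ror2, a Wnt5a receptor gene, did not pass at 3 weeks (log2 fold 0.12, limma adjusted p = 0.135).

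Near 27 TGF-beta and BMP genes 26 of 35 regions fell and 7 rose after TNF, where 64.1% of all listed regions fell. In the Tg197 comparisons 5 rose and 9 fell of 15 at 3 weeks, 4 and 8 of 22 at 8 weeks, and 4 and 6 of 12 at 11 weeks, and the medians were -0.19, 0.09, -0.63 and -1.18. The gain 11.9 kb from Bmp7 after TNF did not pass (log2 fold 0.30, limma adjusted p = 0.0572), and the loss 99.4 kb from Chrd, the BMP antagonist chordin, at 3 weeks had a log2 fold of -0.25, which turned to 0.01 with shifted libraries. Near 31 limb and mesenchyme patterning genes 11 rose and 15 fell of 32 at 3 weeks, 10 and 12 of 35 at 8 weeks, 8 and 6 of 18 at 11 weeks, and 14 and 23 of 37 after TNF, with medians of -0.13, 0.37, 0.05 and -1.18. The region 156 kb from Prrx1, a limb mesenchyme factor, rose to 245 and 247 in TNF-treated against 178, 161 and 156 in WT libraries (chr1:165400001-165401000, log2 fold 0.57, limma adjusted p = 0.0109). Near 16 Hox genes there were 2 or 3 regions in each comparison, and a region 58.3 kb from Hoxb7 rose at 8 weeks to 129, 91.3 and 132 in Tg197 against 29.6, 62.2 and 35.4 in WT libraries (chr11:96088751-96089700, log2 fold 1.5, limma adjusted p = 0.0428). A region 69.8 kb from Hoxa3 fell after TNF (log2 fold -1.43, limma adjusted p = 0.0157).

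Near 40 cadherin and neuronal adhesion genes, 27 of 37 regions rose and 9 fell after TNF, where 29.8% of all listed regions rose and 64.1% fell. At 3 weeks 12 rose and 25 fell of 41, at 8 weeks 6 and 6 of 37, and at 11 weeks 6 and 10 of 17, and the medians were -0.19, 0.43, -0.71 and 0.64. The region 46.2 kb from Cdh8 at 3 weeks had a log2 fold of 0.19 (limma adjusted p = 0.0262), and the one 81.5 kb from Cdh10 had -0.17, which turned to 0.10 with shifted libraries. Near 59 olfactory and vomeronasal receptor genes, 23 of 37 rose and 9 fell after TNF (29.8% and 64.1% of all listed regions), and 3 rose and 21 fell of 27 at 3 weeks (40.3% and 44.7%). The counts were 8 and 9 of 41 at 8 weeks and 5 and 7 of 18 at 11 weeks, and the medians were -0.28, 0.55, -0.45 and 0.60. As listed after TNF, 75.7% of the cadherin and 73.0% of the receptor list regions were gained. That share was 42.6% of all intergenic regions, 58.5% with 1 to 2 named gene starts within 500 kb and 76.1% with none. Whether these lists differ from other intergenic DNA with few named genes was not tested. The region 78.9 kb from Vmn2r103 fell at 3 weeks (log2 fold -0.30, limma adjusted p = 0.00266), and the one 141 kb from Olfr1359 did not pass (log2 fold 0.09).

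Few intergenic regions lay near the markers of cell types that could be placed. Only genes named for a listed region were placed. These were 3 of 8 synovial fibroblast, 3 of 7 macrophage, 5 of 5 endothelial, 4 of 6 lymphocyte and 3 of 6 skeletal muscle markers. Regions near the other markers were not looked up. Within 200 kb of 3 synovial fibroblast markers there were 4, 3, 4 and 5 regions at 3, 8 and 11 weeks and after TNF, of which 1 rose and 3 fell, 0 and 2, 3 and 0, and 0 and 3. The loss 107 kb from Pdgfra, a platelet-derived growth factor receptor gene, at 3 weeks had a log2 fold of -0.21 and turned to 0.05 with shifted libraries, and the region 97.2 kb from Sfrp1 at 8 weeks did not pass (limma adjusted p = 0.137). The single region near the 3 macrophage markers, 8.62 kb from Csf1r, did not pass at 3 weeks (log2 fold -0.05, and 0.21 with shifted libraries). Near 5 endothelial markers there were 7, 2, 2 and 3 regions, with a loss 8.16 kb from Pecam1 at 3 weeks (log2 fold -0.31, limma adjusted p = 0.00468) and a gain 15 kb from Emcn after TNF (0.50, limma adjusted p = 0.0109). Near 4 lymphocyte markers there were 1, 3, 3 and 5. A region 29.1 kb from Bcl11b, a T-cell factor gene, fell at 11 weeks to 49.5, 44.7 and 50.9 in Tg197 against 124, 88.4 and 65.3 in WT libraries (chr12:109118801-109119500, log2 fold -0.88, limma adjusted p = 0.0219), and another 40.3 kb away rose after TNF (log2 fold 0.43, limma adjusted p = 0.0116). Near 3 skeletal muscle markers 1 region was listed at 3 weeks and 1 at 8 weeks, both near Neb, and neither passed (log2 fold -0.10 at 3 weeks, 0.16 with shifted libraries, and 0.44 at 8 weeks). The part of other cells in these values was not tested.

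Few intergenic regions were listed at more than 1 age. Regions at 3 and 8 weeks overlapped in 285 pairs (4.78% of the 3-week and 5.22% of the 8-week regions), and 27.7% of the pairs had the same direction. Regions at 3 and 11 weeks overlapped in 134 pairs (2.27% and 3.95%), with 79.1% the same. Those at 8 and 11 weeks overlapped in 162 pairs (2.99% and 4.78%), with 43.8% the same. Gains made up 27.7% at 3 weeks and 67.0% at 8 weeks in the first set of pairs. They made up 26.1% and 29.1% in the 3-week and 11-week pairs, and 57.4% and 30.9% in the 8-week and 11-week pairs. These shares alone bear on how often directions match, and no agreement beyond them was tested. The overlapping regions were more strongly captured than most, with a median of 232 reads at 3 weeks and 117 at 8 weeks among the 3-week and 8-week pairs, against 163 and 46.9 over all intergenic regions of those ages. Of the pairs of 3-week Tg197 and TNF regions, 22.9% of 288 had the same direction, and 148 were lost in Tg197 and gained after TNF. Gains made up 34.4% of these pairs at 3 weeks and 60.1% after TNF. Regions at 11 weeks and after TNF had the same direction in 28.9% of 159 pairs, where gains made up 42.1% and 55.3%. The 8-week Tg197 and TNF regions overlapped in 894 pairs (16.5% and 12.6%), but share their WT libraries, so their directions were not compared.

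Intergenic DNA listed at all 3 ages comprised 4 places. Near Pdgfb, a platelet-derived growth factor gene, the mean capture was lower in Tg197 at each age, but the groups overlapped at 11 weeks. The 3-week region held 144, 160 and 143 reads in Tg197 and 196, 198 and 179 in WT libraries (chr15:79802451-79802950, log2 fold -0.36, limma adjusted p = 0.00244). The regions at 8 weeks (log2 fold -0.23, turning to 0.08 with shifted libraries) and 11 weeks (-0.55) did not pass. At 11 weeks the values were 168, 191 and 150 in Tg197 and 451, 209 and 161 in WT libraries, with WT library 1 far above the rest. The deposited p lay below the counting bound at 3 and 8 weeks. A region 51.4 to 51.9 kb from Zfp366, a repressor gene of dendritic cells, changed direction with age. At 3 weeks it held 251, 208 and 226 in Tg197 and 109, 72.4 and 150 in WT libraries (chr13:99901701-99903250, log2 fold 1.10, limma adjusted p = 0.00142). At 8 weeks it held 33.1, 47.1 and 38.2 in Tg197 and 129, 99.6 and 50.8 in WT libraries (log2 fold -1.13, limma adjusted p = 0.0428). At 11 weeks its values of 21.5, 17.2 and 82.8 in Tg197 overlapped the 12.2, 20.5 and 13.6 in WT libraries and did not pass (limma adjusted p = 0.102).

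The other two places were lost, gained and lost at 3, 8 and 11 weeks, and gained after TNF. The one 10.7 to 11.4 kb from Nuf2 fell at 3 weeks (log2 fold -0.34, limma adjusted p = 0.00239, while the adjusted p in the authors' deposited table was 1.0) and at 11 weeks, to 27.1, 29.8 and 22.4 in Tg197 against 62.6, 57.7 and 38 in WT libraries (chr1:171472951-171473500, log2 fold -0.95, limma adjusted p = 0.0219). At 8 weeks it did not pass, and its log2 fold of 0.23 turned to -0.17 without Tg197 library 1. After TNF it rose to 512 and 461 in TNF-treated against 352, 388 and 337 in WT libraries (log2 fold 0.44, limma adjusted p = 0.0109). The one 827 kb from Zfhx4 fell at 3 weeks (log2 fold -0.22, turning to 0.04 with shifted libraries) and rose after TNF (0.46, limma adjusted p = 0.0165), and passed neither at 8 nor at 11 weeks.

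The stretches left out of the rule held 156 intergenic regions on chromosome 9 at 3 weeks, 30 of them gained, and 232 on chromosome 12 at 8 weeks, 212 of them gained. With both stretches put back, 56.1% rather than 54.4% of the 8-week regions were gained. At the edge on chromosome 9 at 3 weeks, the last region left out averaged 227 reads in Tg197 and 431 in WT cells and the first one kept 370 and 364. At the 18 Mb edge of chromosome 12 at 8 weeks, the last one kept averaged 46.0 in Tg197 and 22.0 in WT cells and the first one left out 105 and 41.0.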

How the data were processed

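MethylCap-seq values of 21 samples were read from 4 tables. Per the submitters' processing notes, the build was mm9 and BWA, TopHat, TopHat2, Cufflinks and Cuffdiff were used, with no role given. The test that listed the regions is not given in the sources used here. Per the file headers, the deposited signal is the authors' mean normalized read value of a group, and a packed cell holds the 3 library values. From the values themselves, these are whole reads (within 0.1) times 1 factor per library. The log2 fold change and the p-value and adjusted p-value of each region were deposited by the authors, and no window p is above 0.0001. The treatment columns were taken for Tg197 or TNF-treated cells, the control columns for WT cells, and 0 columns stayed unused. Nothing ties a value in a cell to a numbered replicate of the labels, so libraries are numbered by their place in the cell. Total depth is unknown. Even numbers made up 57.0% to 68.4% of the recovered reads per region at 20 or fewer, as could be seen if both ends of a fragment counted. Reads may therefore not be independent molecules, which the binomial test of the counting bound takes them to be. The origin of the even numbers was not tested.

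Each whole table was fitted alone with limma 3.58.1 (R 4.3.3, mean trend) on log2(value + 1) without a filter, with Benjamini-Hochberg adjustment over the table and a threshold of 0.05. A deviation is a library's log2(value + 1) minus the mean of both group means. Shifted libraries had the same median log2(value + 1) over the listed autosomal regions. Folds are Tg197 or TNF-treated over WT. Level is the mean of both group means, and levels of regions were not set per length. Neighbours are consecutive intergenic regions of a table, and overlaps are of at least 1 bp. The counting bound comes from an exact binomial test on reads summed per group. The fit was also run on simulated normal values with few changed regions, none of them weakly captured. That setting is unlike these lists of selected regions, so it does not bear on the counts given here.

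The regions and the 14 gene lists were chosen with earlier results of these data known. Named regions followed a rule. They had an authors' and a limma adjusted p under 0.05, groups that did not overlap and, in the higher group, 20 or more normalized reads on average. They were the 4 largest gains and 4 largest losses, the 2 most strongly captured of each, the first, middle and last region of the longest runs, regions listed at all 3 ages, and the gain and loss of each list with the smallest authors' adjusted p. Runs, regions of all ages and list regions were named whether or not they passed. The files name no gene for these regions, so the lists were matched to 9193 autosomal genes that the 4 files place on mm9, 8944 of them with a RefSeq protein-coding name of 20661. That step was chosen after seeing the data. A list region that the rule names is not reported here. No mm9 genome was used here, so no sequence is shown.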

Additional observations from a re-analysis of the deposited data

Results flagged for a closer look

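Tg197 libraries moved one way at one age and the other way at another, in classes of the same read level. At intergenic regions under 10 normalized reads their median deviation was -0.85 at 8 weeks and 0.76 at 11 weeks, with all 3 Tg197 libraries below all WT libraries at 8 weeks and above them at 11 weeks. At 10 to 30 reads it was 0.55 at 3 weeks, -0.47 at 8 weeks and 0.44 at 11 weeks, so 8 weeks stood against both other ages. The tables were normalized separately and list different regions, and the difference between ages was not tested. The scaling of libraries differed too. At 8 weeks 1 read counted as 1.33, 0.692 and 1.47 normalized reads in Tg197 and 0.846, 0.749 and 1.11 in WT libraries, and at 11 weeks as 0.798, 1.15 and 0.862 in Tg197 and 1.36, 0.931 and 0.974 in WT libraries. The part of scaling and depth in these values was not tested.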

How the results depend on the processing

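No paired analysis was possible because nothing in the tables ties a library's values to a numbered replicate. Limma voom, a mean of at least 10 and the 2 stretches put back kept each count of rises and falls within 1.5 times. A pseudocount of 0.1 did so except at 8 weeks (0 rising, 0 falling). With libraries shifted to the same median, 529 fell at 3 weeks, 1837 rose and 961 fell at 8 weeks, 637 rose at 11 weeks and 382 fell after TNF. Without regions below the counting bound, 1290 fell at 3 weeks. With a minimum absolute log2 fold of 1, 1229 rose and 147 fell at 3 weeks, 501 rose at 8 weeks, 435 fell at 11 weeks and 593 rose after TNF. Leaving out 1 library gave 2196 to 2240 rises and 2365 to 2709 falls at 3 weeks, 0 to 2119 and 0 to 1715 at 8 weeks, 0 to 1481 and 0 to 1120 at 11 weeks, and 1565 to 2667 and 2939 to 3984 after TNF. A group left with 1 library was assumed to vary like the other. The cause was not tested.

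The share gained was 44.4% at 3 weeks, 39.4% at 8 weeks, 61.5% at 11 weeks and 40.7% after TNF among regions past limma. With shifted libraries it was 69.4% at 3 weeks, 55.8% at 8 weeks and 49.2% after TNF, and with the stretches put back 56.1% at 8 weeks. The share at the highest level minus that at the lowest was -86.9 percentage points at 3 weeks (-90.2 past limma, -31.1 shifted). It was 85.7 at 8 weeks (76.1 in 5 equal classes, 90.2 past limma) and 65.4 after TNF (71.9 in equal classes, 72.0 shifted). It kept its sign in each setting run, but at 3 weeks the shares at 100 to 300 reads and at 300 or more moved past 50%, to 56.3% and 60.5%, with shifted libraries, while no other class crossed 50%.

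By chromosome, regions past limma gave 57.1% on chromosome 13 at 3 weeks, 18.3% on 11 and 63.1% on 16 at 8 weeks, and 72.0% on 5 at 11 weeks. Regions of 10 to 100 reads gave 89.2% on 13 and 69.2% on 15 at 3 weeks, 68.5% on 16 at 8 weeks, 74.8% on 5 and 46.8% on 8 at 11 weeks, and 37.2% on 3 and 16.1% on 11 after TNF. Neighbours within 50 kb shared a direction in 59.4%, 73.8%, 71.6% and 69.5% of pairs at 3, 8 and 11 weeks and after TNF. Within 10 kb it was 66.8%, 80.2% and 81.9% at the 3 ages, within 200 kb 66.5% at 11 weeks, and in the same class of level 82.6%, 80.8%, 79.6% and 85.2%.

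Among the named regions, log2 folds that turned sign with shifted libraries included, at 3 weeks, 0.03 near Tbx18, 0.09 and 0.13 near Slc1a6, 0.04 near Zfhx4, 0.02 near Ifnar1, 0.06 near Lama4, 0.01 near Chrd, 0.10 near Cdh10, 0.05 near Pdgfra, 0.21 near Csf1r and 0.16 near Neb. At 8 weeks it was 0.08 near Pdgfb, and after TNF 0.75 near Wdr65 and 0.59 near Wdr17. With 1 library left out, the value near Nuf2 at 8 weeks ran from -0.17 (without Tg197 library 1) to 0.57. Reads under 10 per library limit the values of the weakest regions, and regions not listed have no value.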
